A study of Mus musculus with 4 samples.

Results

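Genes of the interleukin-22 (IL-22) axis were followed in single-cell RNA-Seq of the small intestinal lamina propria (SILP), the connective tissue under the gut epithelium. They are the cytokine gene *Il22* and its near-identical copy *Iltifb*, the receptor chains *Il22ra1* and *Il10rb*, the gene of the soluble inhibitor *Il22ra2*, and the antimicrobial lectin genes *Reg3b* and *Reg3g*. The 7 genes were taken by name, with earlier results of these data known, and matched by gene ID in both gene expression libraries, where they are 7 of 33,696 listed genes in wild-type (WT) and 7 of 32,285 in *A20ZF7*. Cells came from 12-week-old WT mice and from *A20ZF7* mice, which carry point mutations in the zinc finger of A20 (gene *Tnfaip3*) that binds linear (M1) ubiquitin chains. The mutation is a germline knock-in, present in every cell type of these mice. For each genotype, 60,000 cells of 2 mice were pooled after negative selection for T cells and innate lymphoid cells (ILCs) and made into 1 library with a 5′ kit. With 1 library per genotype there is no replicate and no test between genotypes. Ranges in parentheses are 95% intervals for counting error alone. Levels are in CPM, the count of unique molecular identifiers (UMIs) of a gene scaled to 1,000,000 UMIs of the same barcodes.

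IL-22 is secreted mainly by Th17 cells, γδ T cells and group 3 ILCs, and acts on epithelial cells rather than on leukocytes. Its receptor pairs the IL-22-specific chain IL-22RA1 with IL-10RB, a chain shared with other cytokines of the IL-10 family, and signals through JAK kinases to STAT3. IL-22RA2, or IL-22 binding protein, is a soluble decoy made mainly by dendritic cells (DCs). REG3B and REG3G are C-type lectins that enterocytes and Paneth cells secrete against bacteria, and their genes are classical IL-22 targets.

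The pair *Il22* and *Iltifb* lies on chromosome 10 of the mouse assembly GRCm38, *Il22* at chr10:118204942-118210047 on the plus strand and *Iltifb* at chr10:118289629-118295038 on the minus strand, 79,581 bases apart. Each has 5 exons. Their transcripts, of 1,110 and 1,111 bases, differ at 29 bases (97.3% identical), and their 537-base coding sequences differ at 9. The stretch from coding base 158 to 217 is shown because it holds 3 of these differences, printed in capitals.

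Il22: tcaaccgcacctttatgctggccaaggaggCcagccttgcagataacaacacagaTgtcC

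Iltifb: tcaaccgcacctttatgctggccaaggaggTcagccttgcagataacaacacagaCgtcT

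Of all 90-base windows of *Il22*, 24.1% occur unchanged in *Iltifb*. A read from such a window cannot be assigned to either gene, so the counts of the pair are uncertain for each gene alone, and their sum was used for the main comparisons.

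*Reg3b* (chr6:78370657-78373466, plus strand) and *Reg3g* (chr6:78466269-78468872, minus strand) also stand near each other, 92,802 bases apart, with 6 exons each. This pair is far less alike, with 69.3% identity between transcripts and no shared 90-base window, so the UMIs of one could be told from those of the other. Coding bases 58 to 117, shown because 20 of them differ (capitals), give a sense of this distance.

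Reg3b: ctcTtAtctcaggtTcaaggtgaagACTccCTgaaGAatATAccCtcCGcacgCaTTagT

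Reg3g: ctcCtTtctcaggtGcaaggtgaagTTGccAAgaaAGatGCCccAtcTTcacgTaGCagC

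The bases from 178 to 25 before the RefSeq start of both genes follow, because both had higher levels in the epithelial barcodes of the *A20ZF7* library. They lie at chr6:78370707-78370860 on the plus strand and chr6:78468899-78469052 on the minus strand, and the 250 bases before each start are 68.9% identical. The stretch of *Reg3b* is inside the span given above, because an annotated transcript begins farther upstream, but no listed exon covers it. Capitals mark a match to TTCNNNGAA, the palindrome that STAT proteins bind.

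Reg3b: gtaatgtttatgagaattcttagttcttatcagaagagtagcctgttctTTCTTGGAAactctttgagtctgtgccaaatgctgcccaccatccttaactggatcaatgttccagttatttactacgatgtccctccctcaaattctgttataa

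Reg3g: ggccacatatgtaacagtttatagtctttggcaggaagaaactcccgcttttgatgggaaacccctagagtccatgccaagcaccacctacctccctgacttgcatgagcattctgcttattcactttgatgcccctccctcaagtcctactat

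In the 250 bases before each start, taken from RefSeq on GRCm38 and searched on both strands, TTCNNNGAA occurred once in *Reg3b* (position −129) and in none of the windows of *Reg3g*, *Il22*, *Iltifb* and *Il22ra1*. It occurred in 7.02% of 32,851 promoters. The core GCGTG of AHR sites (28.2% of promoters) was found in none of them. TATAAA, present in 12.4% of promoters, stood at −29 in *Reg3b*, at −161 and −27 in *Reg3g* and at −170 in *Il22*. No base was matched by more than 1 of these 3 motifs. A match or its absence describes only the letters of this window. *Il22ra2* (chr10:19621998-19634681, plus) and *Il10rb* (chr16:91406164-91425834, plus, overlapping *Gm21970* on the same strand) are named only. *Il22ra1* lies at chr4:135728172-135752140 on the plus strand.

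The matrices held 35,289,432 UMIs in WT and 54,587,004 in *A20ZF7*, and 14,753 WT and 43,218 *A20ZF7* barcodes were kept as cells, with medians of 1,059 and 853 UMIs. Barcodes were clustered without the 7 genes and named from marker lists. T and innate lymphocytes took 5,282 WT and 20,862 *A20ZF7* barcodes, and stromal cells (fibroblast-like, smooth muscle-like and endothelial-like) took 7,767 and 15,924, despite the selection for lymphocytes. DC-like barcodes numbered 14 and 151, and epithelial-like barcodes 496 and 79. The lists behind the names were raised where named, with the Th17 list at 6,292 CPM in WT and 6,621 CPM in *A20ZF7* Th17-like barcodes and 245 and 1,145 CPM in CD8 T-like barcodes, and the DC list at 37,512 and 29,454 CPM in DC-like barcodes with all 14 genes found. The ILC3 list was less exclusive, with 5,874 and 4,487 CPM in ILC3-like and 4,204 and 4,324 CPM in fibroblast-like barcodes. There were 913 barcode sequences called as cells in both libraries, 161 of them lymphocytes in both. Leaving them out of both libraries moved the *A20ZF7* over WT ratios given further on to 0.686 and 0.63 for *Il22* with *Iltifb* in Th17-like and ILC3-like barcodes, 1.02 for *Il10rb* in lymphocytes, and 3.64 and 7.65 for *Reg3b* and *Reg3g* in epithelial-like barcodes, all within the intervals of the full values, and left *Il22ra2* in DC-like barcodes without a value. Hashtags allowed WT barcodes to be assigned to mouse 1 or mouse 2. The antibody matrix deposited for *A20ZF7* is identical to that of WT, so *A20ZF7* barcodes were not assigned to mice.

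In both libraries *Il22* was highest in ILC3-like and Th17-like barcodes. In WT, ILC3-like barcodes held 1,389 *Il22* UMIs (1,660 CPM, 1,574–1,750) and Th17-like barcodes 71 (1,418 CPM, 1,108–1,789), intervals that overlap. In *A20ZF7*, ILC3-like barcodes held 2,862 UMIs (1,066 CPM, 1,027–1,106) and Th17-like barcodes 2,895 (993 CPM, 957–1,030). These classes were thus close to each other within a library, and next in order in WT came γδ T-like barcodes with 818 CPM and ILC1 or NK-like barcodes with 809 CPM. In *A20ZF7* these held 494 and 403 CPM, below the T cell barcodes whose subset was not named (559 CPM, beside 217 CPM in WT). ILC3-like barcodes come mostly from cluster L9.0 (led by *Pcp4* and *Csf2*) in WT, with 685 of 911 barcodes, and mostly from cluster L2 (led by *Mapk10*) in *A20ZF7*, with 3,069 of 3,135. Th17-like barcodes are cluster L0, led by *Gcg*, *Il17a* and *Rbm24*, with 57 barcodes in WT and 4,236 in *A20ZF7*.

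The sum of *Il22* and *Iltifb* in ILC3-like barcodes was 1,682 CPM in WT and 1,075 CPM in *A20ZF7*, a ratio of 0.639 (0.599–0.682). The value in *A20ZF7* lies below those of both WT mice, which were 1,411 CPM in mouse 1 and 1,966 CPM in mouse 2. Within cluster L2 alone the ratio was 0.494, and within L9.0 alone 0.478. ILC1 or NK-like barcodes (cluster L9.1, led by *Xcl1* and *Tyrobp*) had 822 CPM against 426 CPM, a ratio of 0.518 (0.36–0.724), and their *A20ZF7* level also lies below both WT mice (836 and 864 CPM). γδ T-like barcodes (cluster L11.0, led by *Cd163l1* and *Trdc*) had 843 CPM against 513 CPM, a ratio of 0.608 (0.501–0.739). Here the *A20ZF7* level falls between the WT mice, at 1,443 CPM in mouse 1 and 462 CPM in mouse 2, so the difference was not larger than that between mice.

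In Th17-like barcodes the sum was 1,458 CPM in WT and 1,026 CPM in *A20ZF7*, a ratio of 0.704 (0.558–0.9), with WT mice at 1,628 CPM (13 barcodes) and 1,917 CPM (25 barcodes) and WT barcodes without a hashtag at 724 CPM (19 barcodes). The direction of this ratio depends on which barcodes count as Th17-like. It was 1.41 among barcodes with at least 1,000 UMIs, 1.38 when barcodes were chosen by marker genes in place of clusters, 1.36 when the principal components behind the second clustering were rounded to 3 decimals, and 2.55 when T cell clusters without a subset name were counted as Th17-like. No direction can be given for *Il22* per Th17-like barcode from these libraries. The number of Th17-like barcodes was 57 in WT and 4,236 in *A20ZF7*. They held 1.88% of the *Il22* UMIs of called barcodes in WT and 16.1% in *A20ZF7*, while ILC3-like barcodes held 36.7% and 15.9%.

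T cell clusters without a subset name had a higher sum in *A20ZF7*, 586 CPM against 240 CPM in WT (ratio 2.44, 2.14–2.8), and the *A20ZF7* value exceeds that of either WT mouse (209 and 181 CPM). Different clusters make up this class in each library. Cluster L7 (*Il12rb2*, *Cd40lg*, and the stress gene *Hspa1a*) holds 856 of 982 WT barcodes, and cluster L6 (*Fabp5*, *Penk*) holds 1,721 of 2,854 *A20ZF7* barcodes. Within each cluster the *Il22* levels were closer, at 153 CPM in WT against 219 CPM in *A20ZF7* in L7, 373 against 535 CPM in L6, and 536 against 721 CPM in the proliferating cluster L12. Other CD4 T or NKT-like barcodes (cluster L3, *Ccr7*, *S1pr1*) had a sum of 266 CPM in WT and 397 CPM in *A20ZF7* (ratio 1.49, 1.17–1.93), with WT mice at 370 and 181 CPM.

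The remaining classes have to be read against free RNA in the droplets. Stromal barcodes, which should lack *Il22*, had a sum of 86.8 CPM in WT and 261 CPM in *A20ZF7*, a ratio of 3.01 (2.8–3.23), at median depths of 1,139 and 1,028 UMIs. Barcodes of 10 to 100 UMIs, too shallow to be cells, had 103 and 225 CPM. Against the stromal level of the same library, the sum was 16.8 times higher in WT Th17-like and 19.4 times higher in WT ILC3-like barcodes, but only 3.93 and 4.11 times higher in *A20ZF7*. Treg-like barcodes (10.1 CPM from 1 UMI in WT, 278 CPM in *A20ZF7*) and CD8 T-like barcodes (24.8 and 191 CPM) lay at 0.117 and 0.286 times the stromal level in WT and at 1.06 and 0.731 times in *A20ZF7*. ILC2-like barcodes (82.4 and 230 CPM) lay at 0.949 and 0.882 times. These 3 classes were thus not clearly above the stromal level in either library, although each had a higher CPM in *A20ZF7*. Their ratios were 27.4 (4.9–1,086) for Treg-like, 7.68 (4.45–14.5) for CD8 T-like and 2.8 (2.33–3.37) for ILC2-like barcodes. The first 2 lie above the stromal ratio, and whether their *Il22* UMIs are free RNA was not tested. Macrophage-like barcodes (47 and 334 CPM), plasma-like barcodes (31.3 and 184 CPM) and epithelial-like barcodes (28.1 and 265 CPM) followed the same order between libraries. Their ratios of 7.1 (3.2–19.6), 5.88 (4.4–8.0) and 9.44 (6.32–14.1) also lie above the stromal ratio. A ratio above the stromal one was thus not particular to Treg-like and CD8 T-like barcodes. DC-like barcodes had 0 UMIs in WT and 43 in *A20ZF7* (150 CPM), at least 1.84-fold higher when the 0 is read at a floor of 3 UMIs.

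**Figure D1:**
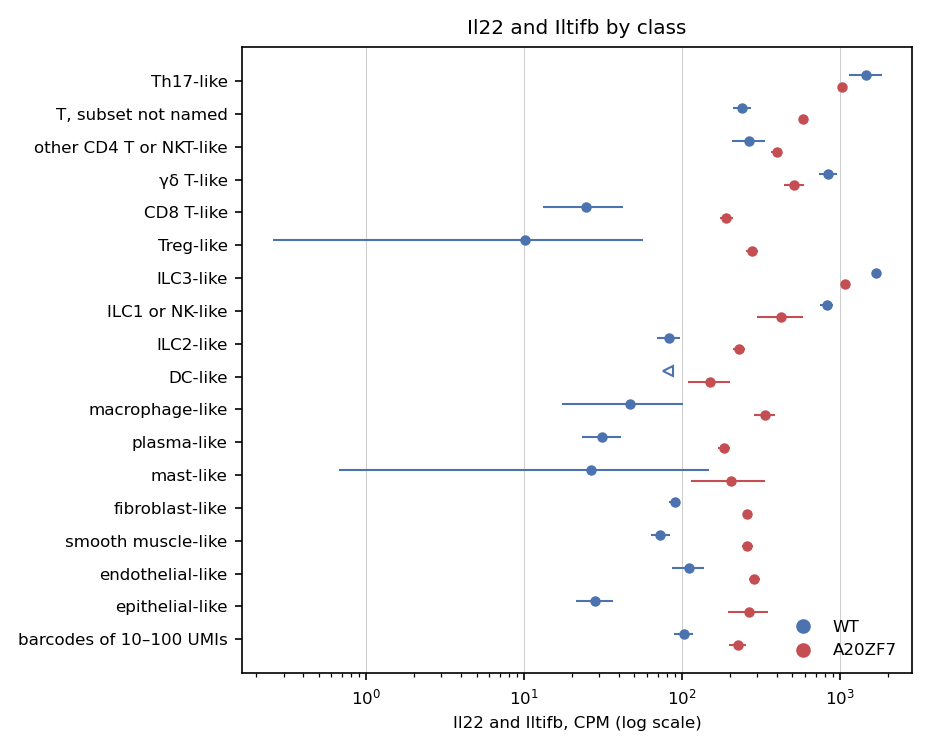
Summed CPM of *Il22* and *Iltifb* (log axis) in each class of barcodes in the WT (blue) and *A20ZF7* (red) libraries, with 95% Poisson intervals, and in barcodes of 10 to 100 UMIs. An open triangle marks 0 UMIs, drawn at the level of 3 UMIs. ILC3-like and Th17-like barcodes are highest in both libraries, and barcodes of 10 to 100 UMIs have 103 CPM in WT and 225 CPM in *A20ZF7*.

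The stromal *Il22* UMIs were not spread evenly. Of 7,767 WT stromal barcodes, 41 had 5 or more *Il22* UMIs and together held 509 of the 864 stromal UMIs. In *A20ZF7*, 262 of 15,924 stromal barcodes held 2,005 of 4,943. In WT, fibroblast-like barcodes had a sum of 66.4 CPM in mouse 1 and 202 CPM in mouse 2, so this level also varied between mice. Doublets of a lymphocyte with a stromal cell and free RNA were not told apart.

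Within the producing classes *Il22* was carried by a minority of barcodes. A UMI was found in 20 of 57 WT Th17-like barcodes (35.1%) and in 1,203 of 4,236 in *A20ZF7* (28.4%), and in 310 of 911 WT (34.0%) and 999 of 3,135 *A20ZF7* (31.9%) ILC3-like barcodes. Barcodes of at least 500 UMIs were also thinned to 500 UMIs. This left out 1,314 of 4,236 Th17-like and 623 of 3,135 ILC3-like barcodes in *A20ZF7*, and 0 in WT. The thinned shares were 29.8% and 26.1% for Th17-like and 27.2% and 25.7% for ILC3-like barcodes, beside 1.63% and 6.67% in fibroblast-like barcodes. In thinned shares, too, the producing classes differed little between libraries and the fibroblast-like share differed more. The 10% of barcodes with most *Il22* held 62.0% of the class's UMIs in WT and 66.7% in *A20ZF7* for Th17-like barcodes, and 68.6% and 65.0% for ILC3-like barcodes. The highest single barcode was ILC3-like, with 97 *Il22* UMIs in WT and 57 in *A20ZF7*, and Th17-like barcodes reached 13 and 23.

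*Il17a*, the other signature cytokine gene of Th17 cells and one of the genes that named this class, was found in 86.4% of *A20ZF7* Th17-like barcodes with an *Il22* UMI and in 72.2% of those without (median depths 678 and 573 UMIs). In WT the shares were 85.0% and 48.6%, over 20 and 37 barcodes. In WT ILC3-like barcodes *Il17a* was rare whether or not *Il22* was found (2.9% and 2.5%). In *A20ZF7* ILC3-like barcodes it was found in 36.2% and 23.5%, in the library where *Il17a* was also found in 15% of CD8 T-like barcodes without *Il22*.

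In WT lymphocytes, *Il22* was also compared between barcodes with the most and the least of selected surface antibodies. The 1,320 barcodes with the most antibody to CD117 (KIT, a marker of ILCs) had 734 CPM of *Il22* and the 1,320 with the least 345 CPM. For IL7R, the IL-7 receptor of lymphoid cells, the values were 623 and 461 CPM, and for KLRG1, which marks ILC2s in the gut, 379 and 501 CPM. The antibody to IL33R, the IL-33 receptor and another ILC2 marker, went the other way, with 577 and 466 CPM. For CD4 the values were 521 and 493 CPM, for CD8a 496 and 540, and for CD3 441 and 500. For CD335 they were 515 and 417 CPM, for IL23R 507 and 496, and for CD90 475 and 490. The antibody to CD4 made up 2.66 per 1,000 antibody UMIs in Th17-like barcodes and 0.886 in CD8 T-like barcodes. CD117 was highest in ILC3-like barcodes (3.5 per 1,000). CD8a was highest in CD8 T-like barcodes, but only narrowly (1.72, beside 1.61 in other CD4 T or NKT-like barcodes). IL33R, KLRG1, CD335 and CD3 followed the classes less closely. IL33R was at 4.69 in ILC2-like and 5.4 in Treg-like barcodes, and KLRG1 at 2.76 and 4.02. CD335 was lowest in ILC1 or NK-like (3.56) and highest in Treg-like barcodes (5.73). CD3 was at 6.75 in ILC3-like and 6.19 in CD8 T-like barcodes. The *Il22* values given for these antibodies may thus not separate cell types.

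*Iltifb* was detected wherever *Il22* was high, at a small share of the pair. In Th17-like barcodes *Iltifb* held 2 UMIs in WT (40.0 CPM) and 97 in *A20ZF7* (33.3 CPM), and in ILC3-like barcodes 18 (21.5 CPM) and 23 (8.57 CPM). Its share of the summed UMIs in ILC3-like barcodes was 1.28% (0.76–2.01) in WT and 0.797% (0.506–1.19) in *A20ZF7*. T cells other than γδ had shares of 9.8% (7.06–13.2) and 4.15% (3.7–4.63). The share in T cells over that in ILC3-like barcodes was 7.66 (4.28–14.2) in WT and 5.2 (3.4–8.33) in *A20ZF7*, and choosing barcodes by marker genes lowered these to 2.74 and 1.17, the latter with an interval that includes 1. Among T cells the WT share was 13.9% (6.87–24.1) in other CD4 T or NKT-like barcodes and 14.1% (8.69–21.1) in cluster L7, beside 2.95% in γδ T-like and 2.74% in Th17-like barcodes. In *A20ZF7* the corresponding values were 7.14% and 1.41%, then 3.61% and 3.24%. CD8 T-like barcodes had 30.8% (9.09–61.4) in WT, from only 13 UMIs of the pair, and 5.39% (3.49–7.92) in *A20ZF7*. WT mice 1 and 2 had shares of 16.7% (5 of 30 UMIs) and 14.3% (3 of 21) in other CD4 T or NKT-like barcodes. In ILC3-like barcodes they had 1.44% (4 of 278) and 0.645% (3 of 465), so the order of these 2 classes held in each mouse. Th17-like barcodes had 0 of 18 and 0 of 43 UMIs in these mice, so they did not share this order. Stromal barcodes (2.04% and 2.25%) lay between these classes. The libraries list different gene sets, and the part of this in share differences between libraries was not tested.

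**Figure D2:**
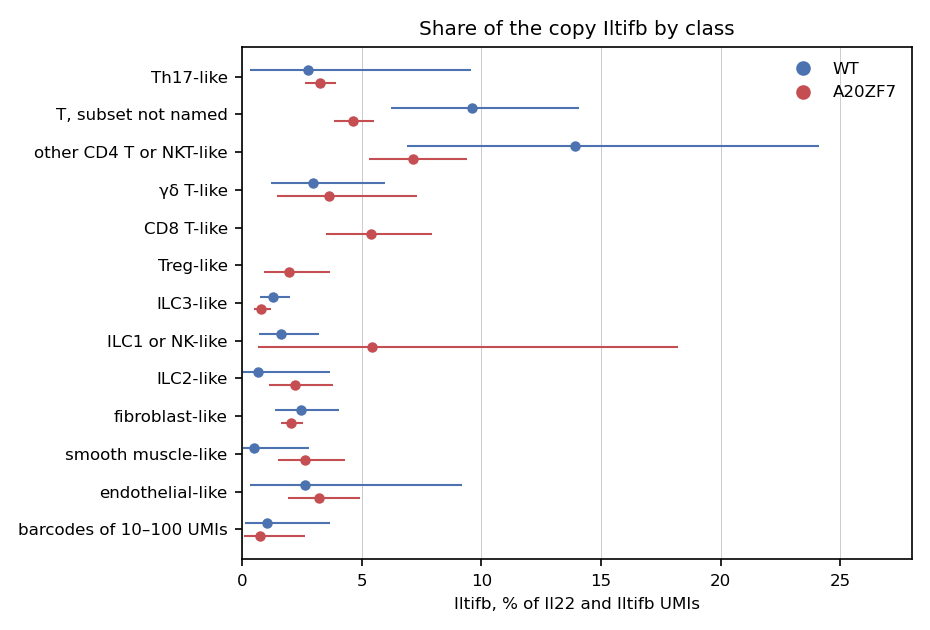
Share of *Iltifb* among the summed UMIs of *Il22* and *Iltifb* in percent, by class and library, with exact binomial 95% intervals. Values with fewer than 20 UMIs of the pair are not drawn. ILC3-like barcodes have 1.28% in WT and 0.797% in *A20ZF7*, and other CD4 T or NKT-like barcodes 13.9% and 7.14%.

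Counts of 2-fold differences set these values beside other genes, for genes with at least 20 UMIs in both libraries together. In Th17-like barcodes 6.04% of genes were at least 2-fold higher in *A20ZF7* and 11.8% at least 2-fold lower, and of the 5 members with enough UMIs none was either. In ILC3-like barcodes, where 7.93% were higher and 4.08% lower, 1 of 5 members was lower, *Iltifb* at a ratio of 0.398 (0.206–0.783). In CD8 T-like barcodes (7.84% higher, 3.26% lower) *Il22* was higher at 10.5-fold and *Reg3b* lower at 0.426, out of 4 members, and in ILC2-like barcodes (6.37% and 4.3%) *Il22* at 2.75-fold and *Reg3g* at 2.55-fold were higher, out of 4. In fibroblast-like barcodes (8.13% and 4.84%) *Il22* and *Iltifb* were higher out of 5 members, at 2.88-fold and 2.39-fold. Most of these calls fall in classes where the gene is near or below the stromal level. In DC-like barcodes (18.0% and 5.98%) neither of the 2 members with enough UMIs passed 2-fold. In all T and innate lymphocytes (6.39% and 5.38%) 1 of 6 members was lower, *Il22ra2* at 0.403, from 11 and 15 UMIs, and the sum of *Il22* and *Iltifb* was 490 CPM in WT and 584 CPM in *A20ZF7* (ratio 1.19, 1.14–1.24).

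*Il22ra1*, the IL-22-specific receptor chain, was found almost only in epithelial-like barcodes and at very low counts. Called barcodes held 11 UMIs in WT, of which 10 were in 10 epithelial-like barcodes (4.84 CPM, 2.32–8.9) and 1 in a fibroblast-like barcode. In *A20ZF7* there were 2 UMIs, both epithelial-like (10.8 CPM, 1.31–39.1). The epithelial ratio of 2.24 has an interval from 0.238 to 10.5, so no difference was detectable at this depth. None of the 5,282 WT and 20,862 *A20ZF7* lymphocyte barcodes held an *Il22ra1* UMI, which allows up to 0.548 and 0.162 CPM at a floor of 3 UMIs.

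*Il10rb*, the shared chain, was present at a low level in every large class. Lymphocytes had 24.8 CPM in WT (20.8–29.4) and 25.1 CPM in *A20ZF7* (22.9–27.5), a ratio of 1.01 (0.834–1.23), and WT mice 1 and 2 had 28.5 and 21.6 CPM. Fibroblast-like barcodes had 34.8 and 34.5 CPM (ratio 0.991, 0.848–1.16). These differences were smaller than the counting error. Macrophage-like barcodes had the highest *Il10rb* level among classes with more than 10 UMIs in each library, 86.2 CPM (43.0–154) in WT and 63.0 CPM (43.7–88.1) in *A20ZF7*. Epithelial-like barcodes had 57.1 CPM (118 UMIs) and 37.9 CPM (7 UMIs), with a ratio of 0.663 (0.261–1.41). ILC3-like barcodes had 27.5 CPM (17.4–41.2) in WT and 13.8 CPM (9.7–19.0) in *A20ZF7*, a ratio of 0.501 (0.29–0.884). That *A20ZF7* value lies below those of WT mouse 1 (40.6 CPM, 8 UMIs) and mouse 2 (16.9 CPM, 4 UMIs), though within the interval of mouse 2. The 57 WT Th17-like barcodes held no *Il10rb* UMI, beside 23.0 CPM in *A20ZF7*, and 3 UMIs would have been 59.9 CPM there. Barcodes of 10 to 100 UMIs had 13.7 and 25.6 CPM, so much of the low level in single classes is of the size of this background.

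*Il22ra2*, the gene of the IL-22 binding protein, was rare, with 27 UMIs in called WT barcodes and 46 in *A20ZF7*. DC-like barcodes, led by *Cst3*, *Plet1* and *Xcr1*, had 7 UMIs in WT (190 CPM, 76.4–391) and 6 in *A20ZF7* (20.9 CPM, 7.69–45.6), a ratio of 0.11 (0.0306–0.383). All 7 WT UMIs came from 1 of 14 barcodes, in mouse 1, and that barcode sequence was also called in the *A20ZF7* library. Without barcodes called in both libraries the WT count was 0, and no ratio could be given. The 6 *A20ZF7* UMIs came from 3 of 151 barcodes. The ratio therefore rests on 1 WT barcode. Macrophage-like barcodes had 1 UMI in WT (7.84 CPM) and 15 in 5 *A20ZF7* barcodes (27.8 CPM, 15.6–45.9), 9 of them in 1 barcode, within the interval of the DC-like barcodes of the same library. Epithelial-like barcodes held none in either library. Lymphocytes had 2.01 and 0.809 CPM, near the 2.11 and 0.827 CPM of barcodes of 10 to 100 UMIs.

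**Figure D3:**
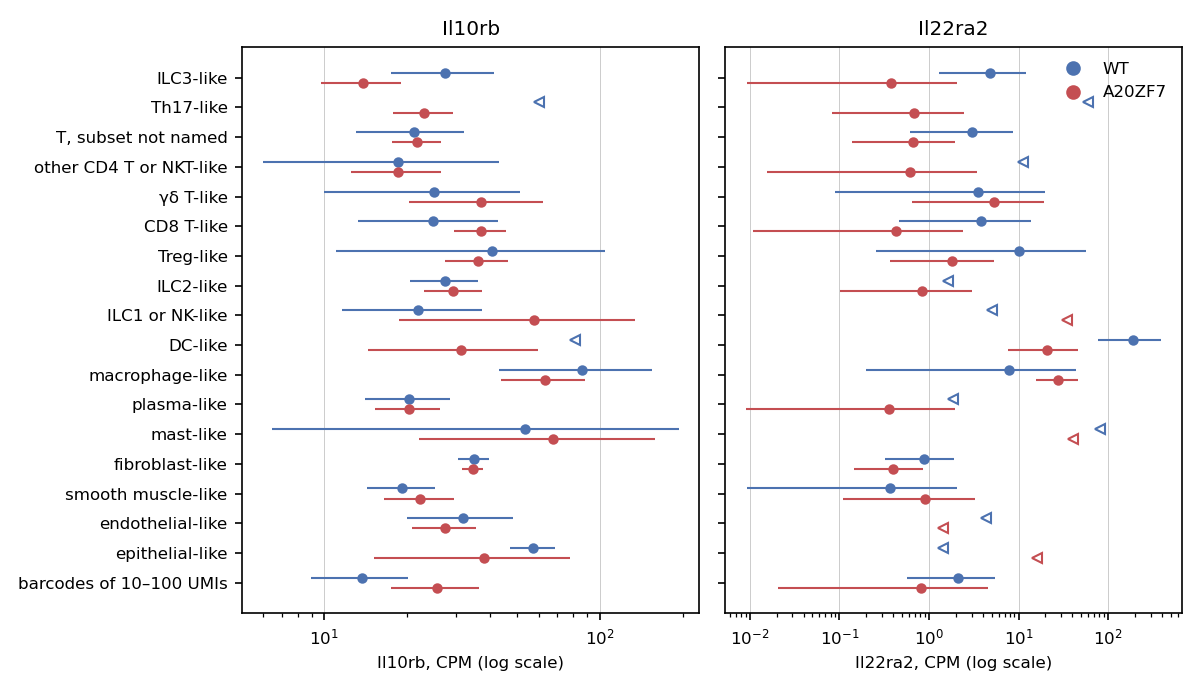
CPM of *Il10rb* (left) and *Il22ra2* (right) on log axes, by class, in the WT (blue) and *A20ZF7* (red) libraries with 95% Poisson intervals. Open triangles mark 0 UMIs and are drawn at the level of 3 UMIs. *Il10rb* is at 24.8 CPM in WT and 25.1 CPM in *A20ZF7* over all lymphocytes, and *Il22ra2* is highest in WT DC-like barcodes, from 7 UMIs of 1 barcode.

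*Reg3b* and *Reg3g* were both higher in the epithelial-like barcodes of the *A20ZF7* library, *Reg3g* by more than *Reg3b*. In epithelial-like barcodes (cluster 18) *Reg3b* had 16,490 UMIs in WT (7,979 CPM) and 5,412 in *A20ZF7* (29,273 CPM), a ratio of 3.67 (3.56–3.78). *Reg3g* had 3,265 UMIs (1,580 CPM) and 2,271 UMIs (12,284 CPM), a ratio of 7.77 (7.37–8.21). Both genes were higher in *A20ZF7* than in either WT mouse, where *Reg3b* stood at 5,626 and 5,464 CPM and *Reg3g* at 1,254 and 1,007 CPM, and than in WT epithelial barcodes without a hashtag (9,103 and 1,783 CPM). In this class 19.1% of genes were at least 2-fold higher in *A20ZF7* and 12.8% at least 2-fold lower. Of 4 members 3 were higher, the third being *Il22*, which was not clearly above the stromal level in either library.

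The difference was not carried by a few barcodes alone. A *Reg3b* UMI was found in 386 of 496 WT barcodes (77.8%) and 70 of 79 *A20ZF7* barcodes (88.6%), at median depths of 4,170 and 1,986 UMIs. Thinned to 500 UMIs, the shares were 59.5% and 78.5% for *Reg3b* and 29.4% and 68.4% for *Reg3g*. The median barcode had 2,667 CPM of *Reg3b* in WT and 7,674 CPM in *A20ZF7*, and 456 and 4,904 CPM of *Reg3g*. The 10% of barcodes with most *Reg3b* held 46.3% of its UMIs in WT and 64.3% in *A20ZF7*, where the highest barcode had 1,052 UMIs. *Reg3g* was found in 78.8% of WT barcodes with *Reg3b* and 12.7% of those without. In *A20ZF7* the shares were 92.9% and 0.0%, the latter over 9 barcodes. The 2 genes were thus mostly detected in the same barcodes. Barcodes with *Reg3b* were also deeper, with medians of 4,570 against 2,177 UMIs in WT and 2,174 against 1,648 in *A20ZF7*. The part of depth was not tested.

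The epithelial barcodes of the libraries were not alike in makeup. The enterocyte genes *Fabp1*, *Apoa1*, *Apoa4* and *Alpi* summed to 41,715 CPM in WT and 7,069 CPM in *A20ZF7*, and 6 goblet cell genes such as *Muc2* and *Tff3* to 256 and 6,323 CPM. *Ptprc*, the pan-leukocyte gene, was at 58.6 and 216 CPM, and *Epcam*, which all epithelial cells express, at 1,033 and 984 CPM. Among barcodes with more enterocyte than goblet UMIs (481 in WT, 42 in *A20ZF7*) the ratio was 3.53 (3.39–3.67) for *Reg3b* and 5.76 (5.35–6.2) for *Reg3g*. In the other barcodes, 15 in WT and 37 in *A20ZF7*, *Reg3b* had 1 UMI in WT and 2,519 in *A20ZF7*, and *Reg3g* 1 and 1,336. Both genes were thus higher in *A20ZF7* in the barcodes with more enterocyte UMIs. In the other kind, the 15 WT barcodes had 30.8 CPM of each gene, near the 26.9 CPM of *Reg3b* in WT lymphocytes. With so few WT barcodes, a difference within goblet cells cannot be read from them. Cluster 22 (*Sprr2a3*, *Fabp2*), which stayed unnamed, had 218 and 1,985 CPM of *Reg3b* and 94.8 and 759 CPM of *Reg3g*.

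Summed over the whole library the order was the opposite, with 496 epithelial-like barcodes in WT and 79 in *A20ZF7*. *Reg3b* had 736 CPM in WT and 145 CPM in *A20ZF7* (ratio 0.197, 0.192–0.202), and *Reg3g* 153 and 58.7 CPM (0.383, 0.366–0.4). In such a sum, fewer epithelial cells and less RNA per cell cannot be told apart. Set against 12 epithelial marker genes in the same barcodes, *Reg3b* had 34.6 UMIs per 100 marker UMIs in WT and 138 in *A20ZF7* over the whole library, and 35.2 and 139 in barcodes of 10 to 100 UMIs. *Reg3g* had 7.2 and 56.1 per 100 over the whole library, and 5.53 and 36.0 in the shallow barcodes. The whole library includes the called epithelial barcodes, while the shallow barcodes do not. Relative to these markers, both genes were therefore higher in *A20ZF7* also in shallow barcodes. The marker genes were themselves a smaller part of the RNA in *A20ZF7* epithelial-like barcodes. There the *Reg3b* ratio was 6.38 per marker UMI and 3.67 in CPM. The part of this in the whole-library and shallow values was not tested. In lymphocytes and stromal barcodes, which should lack both genes, *Reg3b* stood at 26.9 and 21.6 CPM in WT and 18.3 and 19.3 CPM in *A20ZF7*. *Reg3g* went the other way there, at 4.75 and 3.54 CPM in WT and 7.71 and 7.59 CPM in *A20ZF7*, with ratios of 1.62 (1.06–2.57) and 2.14 (1.48–3.18).

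The balance within the pair differed too. *Reg3g* made up 16.5% (16.0–17.1) of the summed UMIs of *Reg3b* and *Reg3g* in WT epithelial-like barcodes and 29.6% (28.5–30.6) in *A20ZF7*, a ratio of 1.79 (1.69–1.89). WT mice 1 and 2 had 18.2% and 15.6%. A similar balance was seen in barcodes that should lack both genes, with 15% in WT and 29.7% in *A20ZF7* lymphocytes. Stromal barcodes had 14.1% and 28.3%. In barcodes of 10 to 100 UMIs the shares were 13.6% (11.6–15.7) in WT and 20.6% (16.4–25.2) in *A20ZF7*. The latter lies below the *A20ZF7* epithelial share. In cluster 22 the shares were 30.3% (15.6–48.7) and 27.7%, so the difference was not seen there, with 33 UMIs of the pair in WT.

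**Figure D4:**
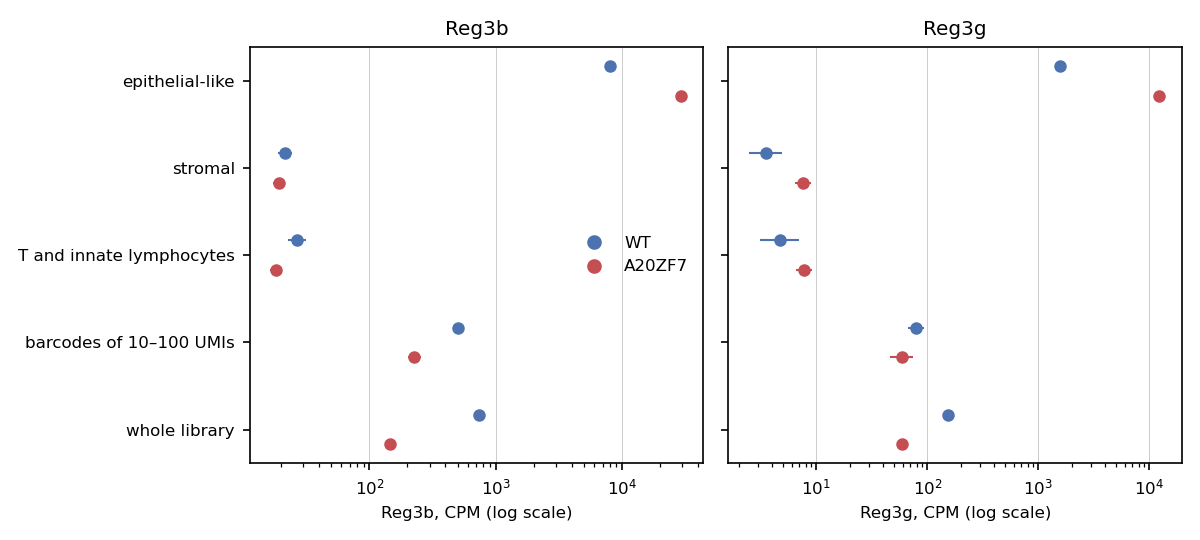
CPM of *Reg3b* (left) and *Reg3g* (right) on log axes in epithelial-like, stromal and lymphocyte barcodes, barcodes of 10 to 100 UMIs and the whole library, WT in blue and *A20ZF7* in red, with 95% Poisson intervals. Epithelial-like barcodes are higher in *A20ZF7*, while the whole library, with 496 WT and 79 *A20ZF7* epithelial-like barcodes, is higher in WT.

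Other genes of the pathway were read from 4 lists. Among 9 signalling genes, each with at least 20 UMIs, none was at least 2-fold lower in *A20ZF7* in Th17-like or ILC3-like barcodes. *Socs3*, the feedback inhibitor of STAT3 signalling, was 3.3-fold (2.0–5.79) higher in ILC3-like barcodes. The list's median log2 ratio was 0.667 in Th17-like barcodes, where all genes had 0.182, and 0.647 in ILC3-like barcodes, where all genes had 0.0216. *Stat3* itself stood at 1.94-fold (1.16–3.56) and 1.73-fold (1.53–1.95). In epithelial-like barcodes, where 19.1% of all genes were at least 2-fold higher, 5 of 7 signalling genes passed 2-fold, among them *Stat3* (2.21-fold, 1.54–3.11) and *Socs3* (2.28-fold, from 54 and 11 UMIs), with a median of 0.944 beside 0.0973 for all genes.

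Of the inducers of *Il22*, 0 of 12 were at least 2-fold higher in *A20ZF7* Th17-like barcodes, where 6.04% of all genes were. With 12 genes, a count of 0 is close to that share. The list's median log2 ratio there was −0.102, beside 0.182 for all genes. *Il23r*, the IL-23 receptor gene, stood at 0.938 (0.669–1.36) and *Tnfaip3*, which encodes A20, at 0.998 (0.81–1.24). In ILC3-like barcodes, where 7.93% of all genes were higher, 3 of 12 were higher and none lower, namely *Il21r* (2.89-fold), *Batf* (2.46-fold) and *Irf4* (4.74-fold), the last 2 being transcription factors of activated T cells. The T cell list in this class summed to 553 CPM in WT and 1,564 CPM in *A20ZF7*, so T cell transcripts moved with these values, and their part was not tested. In epithelial-like barcodes 7 of 10 inducers were higher, beside 19.1% of all genes, including the lymphocyte genes *Il23r* (11.7-fold) and *Batf* (19.9-fold), beside *Cd3e* at 32.9 and 173 CPM.

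The list of IL-10 family ligands and receptors also held interferon receptor genes, among them *Ifnar1*, *Ifnar2*, *Ifngr1* and *Ifngr2*. In Th17-like barcodes, where 6.04% of all genes were higher, 1 of 6 listed genes was. It was the interferon receptor gene *Ifnar1* (3.01-fold, 0.532–119, from 1 and 175 UMIs). In ILC3-like barcodes, where 7.93% were higher, 3 of 6 were. These were *Il10*, *Il10ra* and the interferon receptor gene *Ifngr2*, at 2.65-fold, 6.23-fold and 2.03-fold. None was lower in either class. In epithelial-like barcodes (19.1% of all genes higher and 12.8% lower) 0 of 5 were higher and 1 lower (*Ifngr2*, 0.439, 0.217–0.798). *Il10*, whose product signals through the same shared chain as IL-22, had 42.6 CPM in WT and 101 CPM in *A20ZF7* over all lymphocytes (2.37-fold, 2.07–2.73).

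The IL-22 response genes of the epithelium did not move as one. Of 12 with enough UMIs in epithelial-like barcodes, 6 were at least 2-fold higher in *A20ZF7* and 3 at least 2-fold lower, with a median log2 ratio of 0.387. Over all genes of this class 19.1% were higher and 12.8% lower, with a median of 0.0973. The siderophore-binding lipocalin *Lcn2* had 7 UMIs in WT and 85 in *A20ZF7* (3.39 and 460 CPM), and the acute-phase gene *Saa1* 1 and 26 UMIs. *Dmbt1*, a mucosal scavenger receptor, was 9.25-fold (8.06–10.6) higher, and *Duox2* and *Duoxa2*, which make the hydrogen peroxide-producing oxidase, were 3.73-fold and 3.19-fold higher. *Retnlb*, a goblet cell gene, was 3.53-fold higher from 19 and 6 UMIs. On the other side, *Reg3a*, a relative of the 2 lectin genes, stood at 0.258 (0.143–0.428), the cytokine gene *Il18* at 0.332 (0.192–0.536) and the Paneth cell gene *Ang4* at 0.0582 from 192 and 1 UMIs. *Reg1* (0.579), *Pigr* (0.677) and *Muc13* (0.772) were lower by less than 2-fold. These values share the shift in makeup between enterocyte and goblet genes given above.

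Over 32 sums of UMIs, 1 for each class and genotype with enough barcodes, the genes most like each member were named from the correlation of log2(CPM + 10) among 12,198 genes. The sums share their libraries and free RNA, so the values are a description. The pattern of *Il22* was most like that of *Il23r* (r = 0.927), *Ppp1r14c* (0.91) and *Il17re* (0.877), and that of *Iltifb* was most like *Il17re* (0.824). *Il22ra2* was most like *Cd80* (0.876), a costimulatory gene of antigen-presenting cells, over only 71 UMIs. *Il10rb* had no close match, with *Gcdh* highest at 0.79. *Reg3b* and *Reg3g* shared *Cdcp1* (0.972 and 0.977) and *Prss32* (0.966 and 0.973) among their 3 most similar genes. *Il22ra1*, with 13 UMIs, was not compared.

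**Figure D5:**
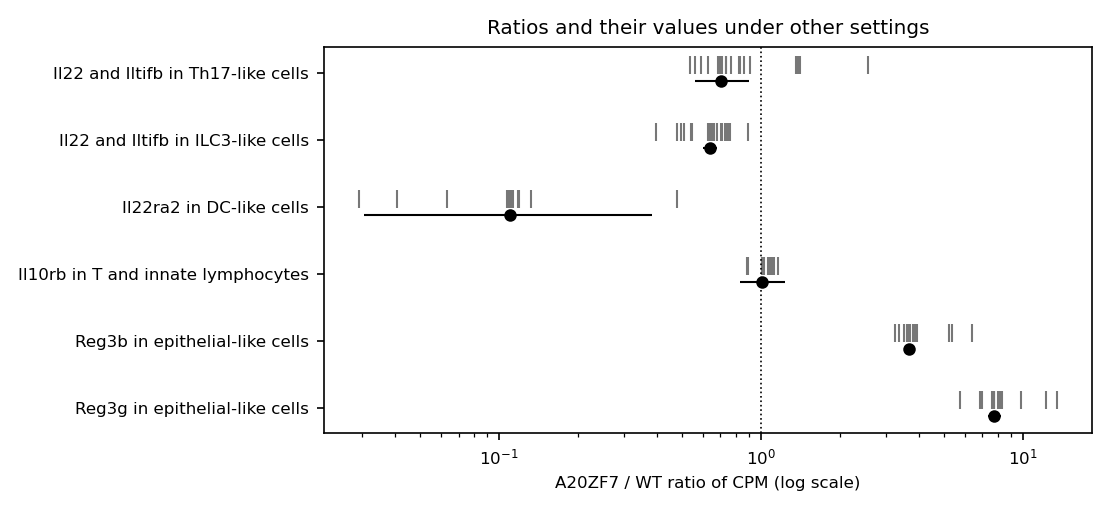
Ratios of CPM in *A20ZF7* over WT (log axis) for 6 results. Black dots with bars are the reported values with 95% intervals, grey ticks are the values under other settings, and the dotted line marks 1. The ticks of *Il22* and *Iltifb* in Th17-like cells lie on both sides of 1, from 0.535 to 2.55, while those of *Reg3b* stay between 3.24 and 6.38 and those of *Reg3g* between 5.76 and 13.5.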

How the data were processed

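The deposited files hold UMI counts of each gene in each barcode. Per the labels the authors ran Cell Ranger 7.1 on the genome mm10, while the headers of the gene expression files name a later version. These deposited counts had no filter on cells. The gene lists of the libraries differ, with 1,746 IDs in WT alone and 335 in *A20ZF7* alone. Another 1,905 shared IDs have a different symbol, among them *Iltifb*, listed as *Il22b* in WT. Any difference in counting that goes with these lists cannot be told apart from genotype. Gene IDs in both lists (31,950) were used. The 7 members and the gene lists were chosen with earlier results of these data known. Barcodes passed an order-of-magnitude UMI threshold (675 in WT, 396 in *A20ZF7*) and the study's limits of 200 to 2,500 genes and 15% mitochondrial counts. WT barcodes with 2 hashtags (HTODemux, quantile 0.99) were removed, and doublets were otherwise left in. Hashtags were read in WT alone.

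Clustering used R 4.3.3 and Seurat 5.3.0 (the study used 4.3) with 2,000 variable genes without the members, 30 principal components and resolution 0.8. Lymphocyte clusters with raised lists of 2 or more of γδ T, ILC3, ILC1 or NK markers were split once more at 0.3. Names came from marker lists (mean log2 fold of at least 0.4), with limits set after the clusters had been seen, and rebuilt names may differ from those of the study. All members are named, other genes if on a list and with at least 20 UMIs. Some listed genes and 1 searched motif are not reported here. CPM have exact Poisson, shares exact binomial and ratios exact conditional intervals, without any test. A count of 0 was read as 3 UMIs for 2-fold calls. Lists' median ratios use log2(CPM + 10). Python 3.11.15, numpy 2.4.6, scipy 1.17.1, pandas 2.3.3 and scanpy 1.11.5 (Scrublet scores) were used. The ratios were checked on simulated counts at the depths of the Th17-like, ILC3-like and epithelial-like barcodes. There 98.4%, 96.1% and 97.2% of intervals held the true ratio. Genes raised 4-fold had median ratios of 4.94, 4.04 and 3.96. Of unchanged genes, 16.2%, 2.64% and 11.5% passed 2-fold in either direction, so many 2-fold calls in Th17-like and epithelial-like barcodes can be counting error. Transcript coordinates come from the GRCm38 annotation. Alternatives changed barcodes, clustering, totals, depth, background and WT mice. Some, such as marker-defined epithelial subsets, background from stromal barcodes, shared barcodes and rounding, were added after the data had been seen.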

Additional observations from a re-analysis of the deposited data

Results flagged for a closer look

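The ratio of *Il22* and *Iltifb* in *A20ZF7* over WT had opposite directions in different lymphocyte classes. It was below 1 in Th17-like (0.704), γδ T-like (0.608), ILC3-like (0.639) and ILC1 or NK-like barcodes (0.518), and above 1 in other CD4 T or NKT-like barcodes (1.49) and in T cell clusters without a subset name (2.44). The difference between classes was not tested. The Th17-like value changes direction with the choice of barcodes, and ILC3-like barcodes and unnamed T cell clusters come mostly from different clusters in each library. The stromal level of the sum was 86.8 CPM in WT and 261 CPM in *A20ZF7*, and its part in these ratios was not tested beyond the values with it taken off.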

How the results depend on the processing

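Of 135 alternative values, 89 moved by no more than the interval of the reported one, 42 moved further without changing direction and 4 changed direction, and the cause was not tested. The 4 are those of *Il22* and *Iltifb* in Th17-like barcodes (reported as 0.704): 1.41 with at least 1,000 UMIs, 1.38 with barcodes chosen by markers, 1.36 with rounded principal components and 2.55 with unnamed T cell clusters added. That ratio was also 0.906 at resolution 1.5 and 0.558 with the stromal level taken off. The ILC3-like ratio (0.639) was 0.89 without a UMI threshold, 0.711 with at least 1,000 UMIs, 0.728 with 5,000 genes allowed, 0.735 without cell cycle regression, 0.751 at resolution 1.5, 0.701 by markers, 0.538 and 0.51 with the level of shallow or stromal barcodes taken off, 0.398 for *Iltifb* alone, and 0.494 and 0.478 within clusters L2 and L9.0. *Il22ra2* in DC-like barcodes (0.11) was 0.477 by markers. *Reg3b* (3.67) was 3.37 with 5,000 genes allowed, 3.8 without cell cycle regression, 3.85 by markers, 3.93 with mitochondrial, ribosomal and immunoglobulin genes out of the total, 3.24 thinned to 500 UMIs, 3.89 with the shallow level taken off, 3.53 in enterocyte-rich barcodes and 6.38 per epithelial marker UMI. *Reg3g* (7.77) was 6.86 with 5,000 genes allowed, 8.26 by markers, 8.32 with those genes out of the total, 6.96 thinned, 5.76 in enterocyte-rich barcodes and 13.5 per epithelial marker UMI. *Il10rb* in lymphocytes (1.01) stayed between 0.881 and 1.16.

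With 1 WT mouse left out, keeping the single-hashtag barcodes of the other, the Th17-like ratio ran from 0.535 to 0.63, the ILC3-like ratio from 0.547 to 0.761, *Reg3b* from 5.2 to 5.36 and *Reg3g* from 9.8 to 12.2. *Il22ra2* was 0.0291 without WT mouse 2, and without mouse 1, thinned, or without barcodes called in both libraries it had no WT UMI and no value. *Il10rb* with the shallow level taken off gave no value, as less than 0 was left in *A20ZF7*. No paired analysis was possible because each genotype is 1 library of pooled mice, and the labels pair no samples across genotypes. Depth limits *Il22ra1*, with 13 UMIs in called barcodes, and *Il22ra2* most.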
